A study of Mus musculus with 48 samples.

Results

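Macroautophagy is the route by which a cell encloses protein aggregates, organelles or cytosol in a double membrane, the autophagosome, and delivers them to the lysosome. A kinase complex starts the process, a lipid kinase complex marks the membrane, and lipid carriers let it grow. A conjugation cascade resembling ubiquitylation then attaches ATG8 proteins to the membrane, where they hold the receptors that bring the cargo. α-synuclein (α-syn), which aggregates in Parkinson's disease, is among the known cargoes of autophagy and lysosomes in dopaminergic neurons.

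The 40 genes described here encode this machinery and its receptors. They were chosen by name, as the genes of the batch-corrected tables whose symbols are on a list of core autophagy genes, and all 40 were found among the 19601 protein-coding genes of those tables. By role, 5 belong to the initiation complex, 6 to the lipid kinase complex, 6 to the growth of the membrane, 10 to conjugation, 5 to the ATG8 family, 7 to the cargo receptors and 1 to fusion with the lysosome. All 40 also passed the filter on low counts, which kept 14839 genes.

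RNA was taken from the substantia nigra (SN) of male C57Bl/6J mice injected at 121 days of age into 1 striatum with α-syn preformed fibrils (PFF), which seed aggregation, or with α-syn monomer as the control. The labels name no transgene, and the whole SN was used and not the pars compacta alone. After injection mice were kept in chambers at 21% or 11% O2, and tissue was taken 90 to 98 days later. The study's methods and its deposited design differ on whether 11% O2 was breathed from the day of injection or in the later part of that time. The groups here are those of the paper's experiment with 11% O2 from the day of injection. Its experiment with a later start had no monomer group at 11% O2. The analysed mice were 11 with monomer at 21% O2, 12 with PFF at 21% O2, 9 with monomer at 11% O2 and 10 with PFF at 11% O2. The labels place them in 3 batches, and monomer mice at 21% and at 11% O2 share only batch 1.

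Depth was even, with 12902996 to 17120921 counts on genes per mouse. The tissue held dopaminergic transcripts: *Th*, the rate-limiting enzyme of dopamine synthesis, was detected in every mouse, from 96.1 to 1079 TPM, a scaled measure of transcript level. The summed TPM of 8 dopaminergic markers ranged from 614 to 4717 over the mice, so dissections differed in dopaminergic content. None of these 8 genes passed the test (edgeR adjusted p under 0.05) in any comparison, nor at an unadjusted p under 0.05. Their intervals were wide, so a large difference between groups could have been missed. For PFF against monomer at 21% O2 the median half-width was 0.559 on the log2 scale. There, 0 of the 8 intervals lay within 0.25 of no change. The paper counted fewer TH-positive neurons in the pars compacta with PFF at 21% O2.

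TPM takes transcript length and depth into account, so levels can be compared between genes. Such comparisons hold only as far as the length used fits the transcripts present. Summed over its genes, the ATG8 family was the most abundant group. *Gabarapl1* had the highest level of the 40, with a mean of 965 TPM over the 42 mice, above 99.4% of the genes tested. It shares 28.3% of its exon bases with a transcript on the opposite strand, and counting used no strand, so this level is uncertain. *Rab7*, the small GTPase of late endosomes, followed at 544 TPM and *Sqstm1*, the ubiquitin-binding receptor also called p62, at 525 TPM. *Map1lc3a* stood at 422 TPM, *Gabarap* at 310 TPM and *Gabarapl2* at 295 TPM.

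At the other end were *Uvrag*, a partner of the lipid kinase, at 13.7 TPM, *Atg4a*, a protease that processes ATG8 proteins, at 14.9 TPM, and *Pik3r4*, the regulatory subunit of the lipid kinase, at 16.8 TPM. Even *Uvrag* lay above 36.6% of the genes tested. Of the genes for initiation, the lipid kinase, membrane growth and conjugation, *Vmp1*, a lipid scramblase of the endoplasmic reticulum, was the most abundant at 139 TPM.

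**Figure D1:**
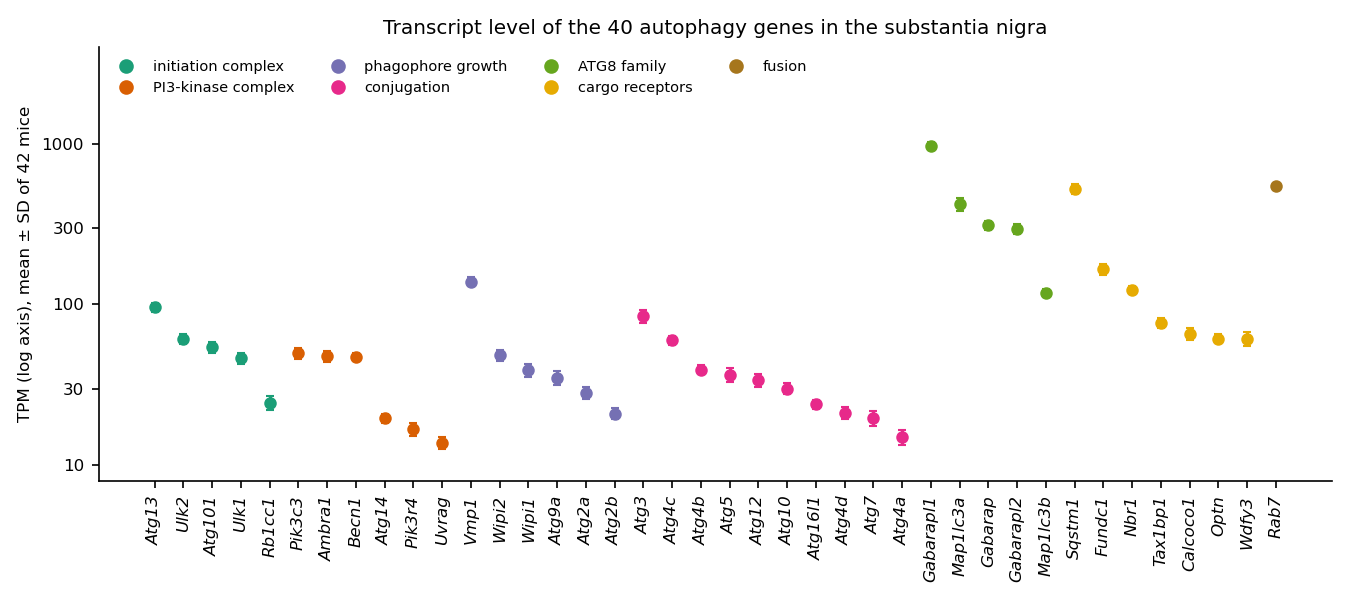
Mean level of each of the 40 genes in TPM on a log axis, with the SD over the 42 mice, ordered by role and then by level. *Gabarapl1* is highest at 965 TPM and *Uvrag* lowest at 13.7 TPM.

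The share of each gene among its close relatives was computed in every mouse. Of the summed TPM of the 5 ATG8 genes, *Gabarapl1* made up 45.7% ± 1.32 (SD, n = 42), *Map1lc3a* 19.96% ± 1.42, *Gabarap* 14.7% ± 0.925, *Gabarapl2* 14.0% ± 0.787 and *Map1lc3b* 5.64% ± 0.443. The LC3 form most used as a laboratory marker of autophagosomes, encoded by *Map1lc3b*, thus had the smallest share of the family in TPM. Its annotated exons cover 7517 bases, against 1181 for *Map1lc3a* and 1844 for *Gabarap*. TPM divides by a length, so this order and the other shares given here depend on the length used. Among the 4 ATG4 proteases, *Atg4c* made up 44.2% ± 1.77 and *Atg4a* 11.0% ± 1.08. *Ulk2* made up 57.0% ± 2.53 of the pair of ULK kinases, which phosphorylate the first substrates of autophagy. *Wipi2* made up 55.4% ± 2.53 of the WIPI pair, which reads the lipid mark, and *Atg2a* 57.3% ± 1.73 of the ATG2 pair, which carries lipid to the growing membrane.

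The genes also varied little between mice of a group. The SD within groups, pooled over the 4 groups on the log2(TPM + 1) scale, had a median of 0.108 over the 40 genes, from 0.072 for *Rab7* to 0.141 for *Atg7*. The median was 0.135 over all genes tested and 0.118 over genes with levels in the range of these 40.

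Groups were compared by edgeR (quasi-likelihood test, counts after batch correction), and p-values were adjusted by the Benjamini–Hochberg method over all 14839 genes. A call required both an adjusted p under 0.05 and a change of more than 0.25 on the log2 scale, and the adjusted p alone is given beside it. At the first rule, 0 of the 40 genes were called between PFF and monomer at 21% O2, where 3.70% of all genes were. At 11% O2, 0 of 40 were called between PFF and monomer, where 0% of all genes were (DESeq2 called 1 gene, none of the 40, and limma called 0).

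Between 11% and 21% O2, 0 of 40 were called in monomer mice against 7.23% of all genes, and 0 of 40 in PFF mice against 0.580% of all genes. DESeq2 and limma also called 0 of the 40 in each of these 4 comparisons. For the interaction, which is the PFF effect at 11% O2 minus that at 21% O2, 2 of 40 were called, *Atg3* and *Map1lc3a*, where 2.14% of all genes were.

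With the adjusted p alone, *Atg4a* was higher with PFF at 21% O2. It was 1 of the 40, or 1 higher and 0 lower, where 7.59% of all genes passed, 3.89% higher and 3.71% lower. *Atg3*, *Atg12* and *Rb1cc1* were lower at 11% O2 in monomer mice, which is 3 of 40 where 13.2% of all genes passed, 7.01% higher and 6.21% lower. No member passed between PFF and monomer at 11% O2 (0% of all genes) or between 11% and 21% O2 in PFF mice (0.815% of all genes). For the interaction, the same 2 genes passed, both higher, where 2.32% of all genes passed, 1.24% higher and 1.08% lower.

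The shares at an unadjusted p under 0.05 were near those of all genes. They were 9 of 40 (22.5%, against 22.4% of all genes) for PFF at 21% O2, 2 (5%, against 3.92%) for PFF at 11% O2, and 4 (10%, against 15.4%) for the interaction. For 11% against 21% O2 they were 8 (20%, against 27.7%) in monomer mice and 3 (7.5%, against 10.7%) in PFF mice.

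The size of the changes was small throughout. The median log2 fold change of the 40 genes was -0.019 for PFF at 21% O2, -0.0093 for PFF at 11% O2, -0.016 for 11% O2 with monomer and -0.0072 for 11% O2 with PFF, and the interaction had a median of 0.028. Over all genes tested the same medians were 0.00085, -0.00060, -0.0060, -0.0063 and -0.00057.

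The intervals of this fit give a range for what was missed. The 95% interval of the log2 fold change lay wholly between -0.25 and 0.25 for 39 of the 40 genes for PFF at 21% O2 (97.5%, against 62.1% of all genes) and for 38 for PFF at 11% O2 (95%, against 67.9%). It did so for 34 for 11% O2 in monomer mice (85%, against 55.2%), for 38 for 11% O2 in PFF mice (95%, against 67.4%) and for 29 for the interaction (72.5%, against 41.9%). For most of the 40 genes, changes of the size used as the threshold were therefore outside the interval. The fit takes the batch correction as given, so the intervals may be too narrow. The shares of all genes are not matched for level: for PFF at 21% O2 the median half-width was 0.090 for the 40 genes and 0.119 for all genes.

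**Figure D2:**
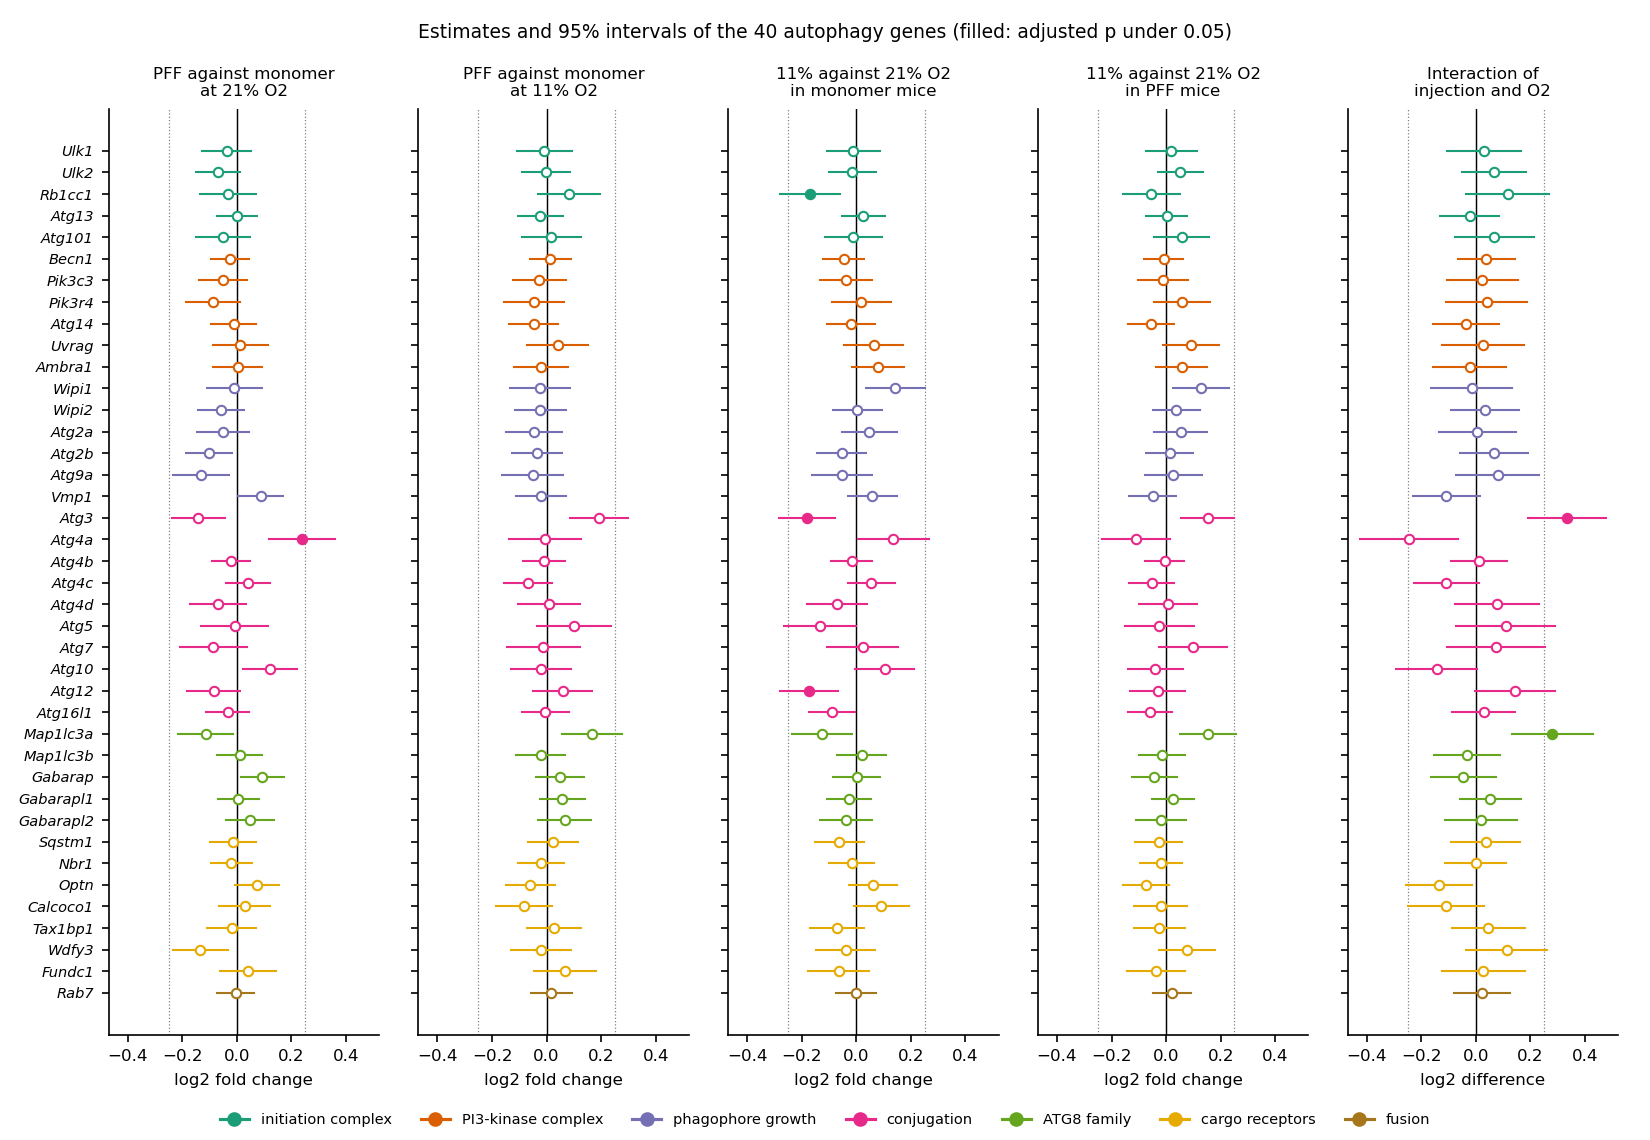
Log2 fold change of each of the 40 genes with its 95% interval in the 4 comparisons, and the log2 difference for the interaction, coloured by role. Filled points have an adjusted p under 0.05 (1, 0, 3, 0 and 2 genes from left to right), and dotted lines mark log2 changes of -0.25 and 0.25.

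*Atg3* encodes the enzyme that, like an E2 of the ubiquitin system, transfers ATG8 proteins to the membrane lipid. It is listed as ENSMUSG00000022663.3 on chromosome 16, 45158785 to 45188538 on the plus strand (GENCODE vM21, GRCm38), and shares no exon bases with another gene. Its level was lowest, median and highest at 81.4, 88.8 and 97.4 TPM in monomer mice and at 66.8, 82.6 and 88.6 TPM in PFF mice at 21% O2. At 11% O2 the same values were 68.3, 75.8 and 93.6 TPM in monomer mice and 85.9, 90.3 and 92.8 TPM in PFF mice. Monomer mice at 21% O2 and PFF mice at 11% O2 were thus high, and each of the other two groups reached lower, with some overlap in every comparison.

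All 12 PFF mice at 21% O2 lay below the monomer median, and all 10 PFF mice at 11% O2 lay above it in their own comparison. The log2 fold change of *Atg3* for PFF was -0.14 ± 0.05 (SE) at 21% O2 (edgeR adjusted p = 0.059) and 0.19 ± 0.05 at 11% O2 (edgeR adjusted p = 0.577). The difference of these values, the interaction, was 0.33 ± 0.07 (95% interval 0.19 to 0.48, edgeR adjusted p = 0.00628). Seen by O2, the level fell by 0.18 ± 0.05 on the log2 scale at 11% O2 in monomer mice (edgeR adjusted p = 0.0142), which is a change of -11.8%. In PFF mice the log2 fold change was 0.15 ± 0.05 (edgeR adjusted p = 0.164).

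Within batches, on counts before correction, *Atg3* had the same sign as in all mice in every comparison that could be fitted, but not always the same size. PFF at 21% O2 gave -0.15 ± 0.09 in batch 1 and -0.20 ± 0.07 in batch 2, and PFF at 11% O2 gave 0.14 ± 0.09 in batch 1 and 0.22 ± 0.06 in batch 3. For 11% O2 in monomer mice, batch 1 alone holds both groups and gave -0.11 ± 0.09 (edgeR adjusted p = 0.504), so the call was lost there and the value was smaller than that of all mice. For 11% O2 in PFF mice the values were 0.19 ± 0.09, 0.23 ± 0.08 and 0.04 ± 0.06 in batches 1, 2 and 3. In batch 1, which alone holds all 4 groups, the interaction was 0.30 ± 0.13 (edgeR adjusted p = 0.521), so the call was lost there while the value was close to that of all mice. Batch 3 against batch 1 shifted *Atg3* by 0.18 on the log2 scale, the highest shift among the 40 genes.

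The promoter of *Atg3* (250 bases before to 50 after its start, RefSeq, GRCm38.p6, chr16:45158579-45158878, plus strand) is shown because *Atg3* had the smallest p of the 40 genes. Capitals mark CACGTG, the E-box core read by several basic helix-loop-helix factors, which occurs at -94 and -71 from the start:
Atg3: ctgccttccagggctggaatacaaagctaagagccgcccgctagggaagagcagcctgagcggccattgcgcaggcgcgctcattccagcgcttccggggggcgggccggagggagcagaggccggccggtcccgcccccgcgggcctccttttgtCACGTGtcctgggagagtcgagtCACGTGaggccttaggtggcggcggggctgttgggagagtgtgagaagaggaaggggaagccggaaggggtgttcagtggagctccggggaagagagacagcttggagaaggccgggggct

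Promoters were found for 33 of the 40 genes, as 40 windows, and not for *Atg16l1*, *Pik3c3*, *Becn1*, *Rb1cc1*, *Map1lc3a*, *Atg12* and *Wdfy3*. Some windows lie inside the gene and not at its annotated start, among them those of *Atg7* and *Atg14*. The annotated start is at 114643097 for *Atg7* and at 47570649 for *Atg14*. CACGTG, which reads the same on both strands, was in 4 of the 40 windows (10%), against 7.15% of the 32851 promoters of all genes. The other 3 are shown as 60-base windows for comparison with *Atg3*, each in the direction of its gene:
Atg5 (chr10:44268298-44268357, plus strand): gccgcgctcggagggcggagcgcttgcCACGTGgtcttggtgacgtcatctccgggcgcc
Atg7 (chr6:114670937-114670996, plus strand): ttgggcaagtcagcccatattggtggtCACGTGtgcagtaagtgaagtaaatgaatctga
Atg14 (chr14:47568403-47568462, minus strand): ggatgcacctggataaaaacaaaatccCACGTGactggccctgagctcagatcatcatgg

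The longer palindrome TCACGTGA was in *Atg3* alone of these genes and in 0.974% of all promoters. ACGTG, the core of the sites read by hypoxia-inducible factors, lies inside CACGTG and was searched on both strands. It was in 16 of the 40 windows (40%), against 19.6% of all promoters. The promoters of all genes are those of 27025 genes, where 14839 passed the filter on low counts here. They were not matched to the 40 genes for level or base content, so no enrichment is read from these shares. TTCNNGAA, a core of heat shock elements, was in the windows of *Atg13* and *Vmp1* (5%, against 8.52% of all promoters). The interaction estimates of *Atg5*, *Atg7* and *Atg14* were 0.11, 0.07 and -0.04 on the log2 scale. The part of these letters in any value was not tested.

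*Map1lc3a* encodes LC3A, an ATG8 protein (ENSMUSG00000027602.9, chromosome 2, 155276297 to 155278073, plus strand). At 21% O2 its lowest, median and highest levels were 381, 441 and 487 TPM in monomer mice and 297, 403 and 469.8 TPM in PFF mice. At 11% O2 they were 343, 404 and 431 TPM in monomer mice and 419, 441 and 470.5 TPM in PFF mice. As for *Atg3*, monomer mice at 21% O2 and PFF mice at 11% O2 were high.

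At 11% O2, 8 of 10 PFF mice exceeded the highest monomer mouse, and at 21% O2, 11 of 12 PFF mice lay below the monomer median. The log2 fold change of *Map1lc3a* for PFF was -0.11 ± 0.05 at 21% O2 (edgeR adjusted p = 0.158) and 0.17 ± 0.05 at 11% O2 (edgeR adjusted p = 1.00), so neither passed. Their difference did, at 0.28 ± 0.07 (95% interval 0.13 to 0.43, edgeR adjusted p = 0.0295). By O2, the log2 fold change was -0.13 ± 0.05 in monomer mice (edgeR adjusted p = 0.113) and 0.15 ± 0.05 in PFF mice (edgeR adjusted p = 0.188).

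In batch 1 alone the interaction of *Map1lc3a* was 0.38 ± 0.08 (edgeR adjusted p = 0.204). The PFF effect at 21% O2 was -0.21 ± 0.06 in batch 1 and -0.02 ± 0.07 in batch 2. With batch as a covariate on counts before correction in the 42 mice, the interaction was 0.24 and was no longer past the threshold (edgeR adjusted p = 0.0843), and with all 48 mice it was 0.27 (edgeR adjusted p = 0.0868). *Atg3* passed in both of these fits.

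The other 4 ATG8 genes stayed within narrow limits. Their interaction estimates were 0.05 for *Gabarapl1*, 0.02 for *Gabarapl2*, -0.03 for *Map1lc3b* and -0.05 for *Gabarap* on the log2 scale. *Gabarap* was 279.6, 304 and 326 TPM (lowest, median and highest) in monomer and 299, 321 and 344 TPM in PFF mice at 21% O2, and 260.3, 312 and 334 TPM in monomer and 284, 311 and 351 TPM in PFF mice at 11% O2. Its log2 fold change for PFF at 21% O2 was 0.09 ± 0.04 (edgeR adjusted p = 0.147), with 11 of 12 PFF mice above the monomer median.

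*Atg4a* (ENSMUSG00000079418.3, chromosome X, 140956907 to 141164270, plus strand) encodes an ATG4 protease, which trims ATG8 proteins before conjugation and releases them from membranes. At 21% O2 its lowest, median and highest levels were 11.5, 14.0 and 16.2 TPM in monomer mice and 14.2, 15.9 and 18.1 TPM in PFF mice. At 11% O2 they were 12.8, 15.0 and 17.2 TPM in monomer mice and 12.8, 15.0 and 16.7 TPM in PFF mice. All 12 PFF mice at 21% O2 lay above the monomer median and 5 above the highest monomer mouse.

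*Atg4a* rose with PFF at 21% O2 by 0.24 ± 0.06 on the log2 scale (95% interval 0.12 to 0.36, edgeR adjusted p = 0.00988), an increase of 18.1%, just short of the fold limit of a call. At 11% O2 the value for PFF was -0.01 ± 0.07 (edgeR adjusted p = 1.00), and the interaction was -0.25 ± 0.09 (edgeR adjusted p = 0.137), so the effect of PFF was not shown to differ between O2 levels. The log2 fold change for 11% O2 was 0.14 ± 0.06 in monomer mice (edgeR adjusted p = 0.159). PFF at 21% O2 gave 0.30 ± 0.10 in batch 1 and 0.19 ± 0.09 in batch 2, and in the covariate fit of all 48 mice it gave 0.18 (edgeR adjusted p = 0.175).

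Reads of *Atg4a* could be shared with its processed pseudogene *Atg4a-ps*, which had 0 to 6 counts per mouse before correction against 28 to 256 for *Atg4a*. The other proteases had log2 fold changes for PFF at 21% O2 of -0.02 for *Atg4b*, 0.04 for *Atg4c* and -0.07 for *Atg4d*. *Atg4a* made up 10.1% ± 0.851 (SD, n = 11) of the ATG4 transcripts in monomer and 11.7% ± 0.885 (n = 12) in PFF mice at 21% O2.

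**Figure D3:**
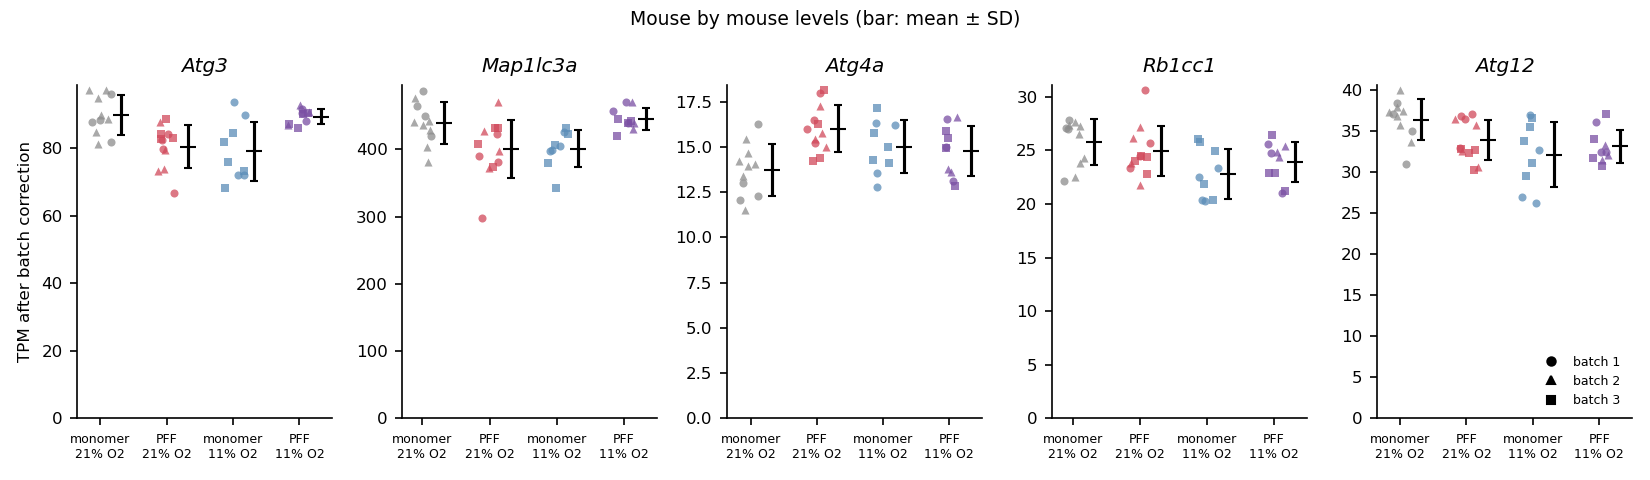
TPM of *Atg3*, *Map1lc3a*, *Atg4a*, *Rb1cc1* and *Atg12* in each of the 42 mice by group, with marker shape by batch and bars for the mean ± SD. *Atg3* is highest in monomer mice at 21% O2 and PFF mice at 11% O2, with means of 89.9 and 89.4 TPM, and the groups overlap for every gene.

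*Atg12* and *Rb1cc1* were the other genes that fell at 11% O2 in monomer mice. *Rb1cc1* encodes FIP200, the scaffold of the initiation complex (ENSMUSG00000025907.14, chromosome 1, 6206197 to 6276648, plus strand). Its lowest, median and highest levels were 22.1, 26.98 and 27.9 TPM in monomer and 21.8, 24.5 and 30.6 TPM in PFF mice at 21% O2, and 20.3, 22.5 and 26.1 TPM in monomer and 21.0, 24.6 and 26.4 TPM in PFF mice at 11% O2. All 9 monomer mice at 11% O2 lay below the median of those at 21% O2, and 4 lay below the lowest of them.

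The level of *Rb1cc1* fell by 0.17 ± 0.06 on the log2 scale (95% interval -0.28 to -0.06, edgeR adjusted p = 0.0340), a change of -11.1%. In PFF mice 11% O2 gave -0.05 ± 0.05 (edgeR adjusted p = 0.764), and the interaction was 0.12 ± 0.08 (edgeR adjusted p = 0.497). The fall was -0.23 ± 0.06 in batch 1 alone. Batch 3 against batch 1 shifted *Rb1cc1* by -0.28 before correction, the lowest shift of the 40 genes, and 5 of the 9 monomer mice at 11% O2 were from batch 3. With batch as a covariate in 42 mice the value was -0.13 (edgeR adjusted p = 0.221), and without the replicate 3 mouse of that group it was -0.15 (edgeR adjusted p = 0.0705), an omission chosen after seeing the data.

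*Atg12* encodes a ubiquitin-like protein that is joined to ATG5 to form the ligase for ATG8. In TPM it was 30.9, 37.1 and 39.9 in monomer and 30.2, 32.8 and 37.1 in PFF mice at 21% O2, and 26.2, 32.7 and 36.9 in monomer and 30.7, 32.4 and 37.0 in PFF mice at 11% O2. It was highest in monomer mice at 21% O2, whose median lay above all 9 monomer mice at 11% O2 and all 12 PFF mice at 21% O2. The level of *Atg12* fell by 0.17 ± 0.05 on the log2 scale at 11% O2 in monomer mice (95% interval -0.28 to -0.07, edgeR adjusted p = 0.0210), and the value was -0.19 ± 0.06 in batch 1 alone. With batch as a covariate in 42 mice it was -0.15 (edgeR adjusted p = 0.0832). In PFF mice 11% O2 gave -0.03 ± 0.05 (edgeR adjusted p = 0.872), and PFF at 21% O2 gave -0.08 ± 0.05 (edgeR adjusted p = 0.299).

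The comparisons of PFF at 21% O2 and of 11% O2 in monomer mice share the 11 monomer mice at 21% O2 as controls, so their values are set side by side and not compared. For *Atg3* they were -0.14 and -0.18, for *Map1lc3a* -0.11 and -0.13, for *Atg12* -0.08 and -0.17, for *Rb1cc1* -0.03 and -0.17, and for *Atg4a* 0.24 and 0.14.

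**Figure D4:**
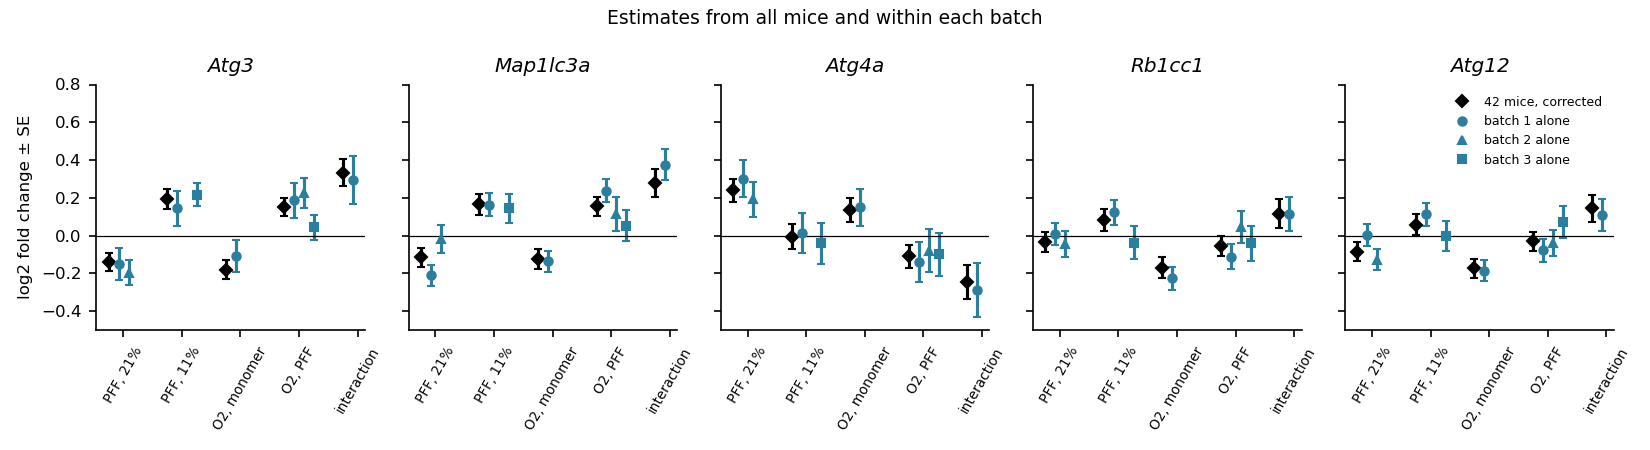
Log2 fold change ± SE of the 5 genes in each comparison from all 42 mice after correction (black diamonds) and within each batch before correction (blue). *Atg3* keeps its sign in each batch that could be fitted, and its interaction is 0.33 in all mice and 0.30 in batch 1.

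The rest of the initiation complex moved little. *Ulk1* and *Ulk2*, its kinases, and *Atg13* and *Atg101*, their adaptors, had log2 fold changes between -0.07 and 0.06 in the 4 comparisons, and none passed. The 6 genes of the lipid kinase complex were *Pik3c3*, the catalytic subunit, *Pik3r4*, *Becn1*, *Atg14*, *Uvrag* and *Ambra1*, a scaffold that binds *Becn1*. Their log2 fold changes lay between -0.09 and 0.09 in the 4 comparisons, and all 24 of their 95% intervals were inside the limits of -0.25 and 0.25. *Becn1* shares 43.9% of its exon bases with genes on the opposite strand, chiefly *Cntd1*, so its value is uncertain too.

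None of the 6 genes for membrane growth passed, and *Wipi1*, which binds the lipid mark, had the smallest p among them. *Wipi1* was 31.7, 37.6 and 45.7 TPM in monomer and 32.1, 37.2 and 40.8 TPM in PFF mice at 21% O2, and 37.4, 40.6 and 48.3 TPM in monomer and 34.4, 39.99 and 45.8 TPM in PFF mice at 11% O2. Its levels were higher at 11% O2 with either injection, but the log2 fold changes of 0.14 ± 0.05 in monomer (edgeR adjusted p = 0.0689) and 0.13 ± 0.05 in PFF mice (edgeR adjusted p = 0.338) did not pass. The interaction of *Wipi1* was -0.02 ± 0.07 (95% interval -0.16 to 0.13).

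*Atg9a*, a scramblase carried by the first vesicles, was 32.8, 36.5 and 43.0 TPM in monomer and 27.01, 33.8 and 37.1 TPM in PFF mice at 21% O2, and 29.9, 35.9 and 40.4 TPM in monomer and 26.9, 34.5 and 40.1 TPM in PFF mice at 11% O2. For PFF at 21% O2, 6 of 12 mice lay below the lowest monomer mouse, with a log2 fold change of -0.13 ± 0.05 (edgeR adjusted p = 0.107). *Atg9a* shares 32.6% of its exon bases with other genes, chiefly a transcript on its own strand. *Atg2b*, a lipid carrier, was 18.6, 21.7 and 26.3 TPM in monomer and 17.5, 20.3 and 22.4 TPM in PFF mice at 21% O2, and 19.6, 21.2 and 22.6 TPM in monomer and 17.98, 20.6 and 24.4 TPM in PFF mice at 11% O2. Its log2 fold change for PFF at 21% O2 was -0.10 ± 0.04 (edgeR adjusted p = 0.128). *Atg2a*, *Wipi2* and *Vmp1* had log2 fold changes between -0.06 and 0.09 in the 4 comparisons, and none passed.

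In the conjugation group, *Atg10*, which transfers ATG12 to ATG5, was the next after those above. It was 25.3, 28.7 and 32.3 TPM in monomer and 27.1, 31.0 and 34.2 TPM in PFF mice at 21% O2, and 27.2, 30.5 and 36.1 TPM in monomer and 24.4, 30.2 and 32.6 TPM in PFF mice at 11% O2. The groups overlapped widely, and the log2 fold change for PFF at 21% O2 was 0.12 ± 0.05 (edgeR adjusted p = 0.128). *Atg5*, *Atg7*, the E1-like enzyme of the cascade, and *Atg16l1*, which places the ligase on the membrane, had log2 fold changes between -0.13 and 0.10 in the 4 comparisons, and none passed.

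None of the 7 cargo receptors passed in any comparison. *Wdfy3* encodes ALFY, which links aggregates to the autophagy machinery. It was 57.5, 63.1 and 73.7 TPM in monomer and 46.6, 58.4 and 67.2 TPM in PFF mice at 21% O2, and 57.6, 61.6 and 77.3 TPM in monomer and 52.1, 61.8 and 69.3 TPM in PFF mice at 11% O2. At 21% O2, 11 of 12 PFF mice lay below the monomer median, and the log2 fold change was -0.13 ± 0.05 (edgeR adjusted p = 0.0913).

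*Optn* encodes optineurin, a receptor for ubiquitylated mitochondria and aggregates. It was 55.7, 60.4 and 65.3 TPM in monomer and 54.5, 63.4 and 66.8 TPM in PFF mice at 21% O2, and 52.8, 63.6 and 71.3 TPM in monomer and 56.6, 59.3 and 63.0 TPM in PFF mice at 11% O2. All 10 PFF mice at 11% O2 lay below the median of the PFF mice at 21% O2, with a log2 fold change of -0.07 ± 0.04 (edgeR adjusted p = 0.536), and the interaction was -0.13 ± 0.06 (edgeR adjusted p = 0.262). *Sqstm1*, *Nbr1*, a receptor related to it, *Tax1bp1*, which binds ubiquitylated cargo, *Calcoco1*, a receptor of the endoplasmic reticulum, and *Fundc1*, a mitochondrial receptor known for its part in hypoxia-induced mitophagy, had log2 fold changes between -0.08 and 0.09 in the 4 comparisons. *Fundc1* was -0.06 for 11% O2 in monomer and -0.04 in PFF mice. *Rab7* had the narrowest spread, with log2 fold changes from -0.0047 to 0.021.

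The wider pathway was covered by 85 other genes, all of them tested. Of 29 further genes for autophagosomes and fusion, 34 regulators and 22 further receptors and mitophagy genes, 4 were called for PFF at 21% O2 (3.70% of all genes), 7 for 11% O2 in monomer mice (7.23% of all genes) and 1 for the interaction (2.14% of all genes). For PFF at 11% O2 and for 11% O2 in PFF mice 0 were called, where 0% and 0.580% of all genes were. At an unadjusted p under 0.05 they were 1 (1.18%, against 3.92% of all genes) and 6 (7.06%, against 10.7%). With the adjusted p alone, 1 was higher and 7 lower for PFF at 21% O2, where 3.89% of all genes were higher and 3.71% lower. For 11% O2 in monomer mice 2 were higher and 11 lower, where 7.01% of all genes were higher and 6.21% lower. Of the called genes, 2 of the 4 for PFF at 21% O2 and 6 of the 7 for 11% O2 in monomer mice were among the 34 regulators.

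*Prkab1*, a subunit of the energy sensor AMPK, had medians of 18.9 TPM in monomer and 24.4 TPM in PFF mice at 21% O2, and 27.1 TPM in monomer and 25.7 TPM in PFF mice at 11% O2. Monomer mice at 21% O2 were thus low. It rose by 0.40 ± 0.07 on the log2 scale with PFF at 21% O2 (edgeR adjusted p = 0.000131) and by 0.49 ± 0.07 with 11% O2 in monomer mice (edgeR adjusted p = 6.85e-06), and its interaction was -0.50 ± 0.10 (edgeR adjusted p = 0.00348). *Ddit4*, which restrains mTORC1, was instead highest in monomer mice at 21% O2, with a mean of 199 TPM ± 30.4 (SD, n = 11). Its means were 146 TPM in PFF mice at 21% O2, 146 TPM in monomer mice at 11% O2 and 141 TPM in PFF mice at 11% O2. It fell by 0.42 ± 0.09 with PFF at 21% O2 and by 0.44 ± 0.09 with 11% O2 in monomer mice on the log2 scale (edgeR adjusted p = 0.00143 and 0.00110). Its interaction of 0.38 ± 0.13 did not pass (edgeR adjusted p = 0.103).

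For PFF at 21% O2 the others called were *Plekhm1*, an adaptor for fusion with lysosomes, at -0.27, and *Bag3*, a chaperone partner in selective autophagy, at -0.28. For 11% O2 in monomer mice they were *Zkscan3*, a repressor of autophagy genes, at -0.30, *Bcl2*, which binds Beclin, at -0.29, *Atg16l2*, a relative of *Atg16l1*, at -0.27, *Trp53inp1* at -0.26 and *Sesn1*, a sestrin that restrains mTORC1, at -0.25. *Sesn3* passed with the adjusted p alone for PFF at 21% O2, at -0.21, for 11% O2 in monomer mice, at -0.20, and for the interaction, at 0.24 (edgeR adjusted p = 0.0345). The hypoxia-responsive mitophagy receptors *Bnip3* and *Bnip3l* had log2 fold changes for 11% O2 of 0.06 and 0.05 with monomer and of 0.11 and 0.09 with PFF, and none passed. *Tfeb*, the transcription factor of lysosomal genes, was at 0.17 ± 0.08 in monomer mice (edgeR adjusted p = 0.131).

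**Figure D5:**
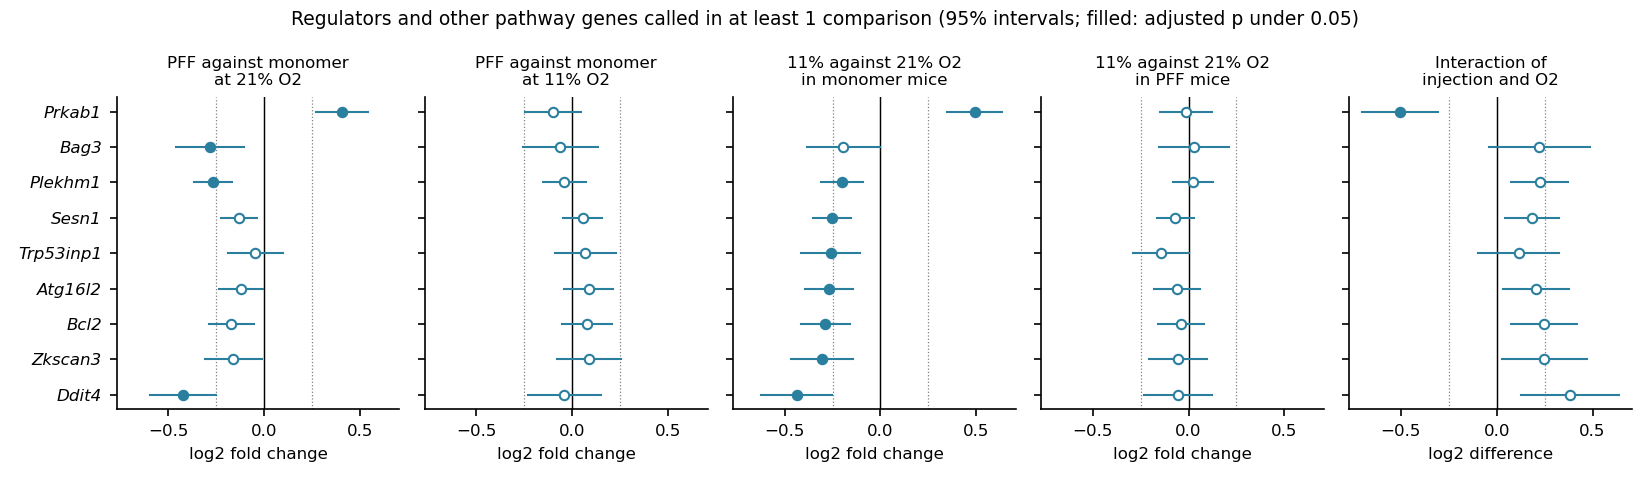
Log2 fold change with its 95% interval of the 9 regulators and other pathway genes called in at least 1 comparison, with filled points for an adjusted p under 0.05. *Prkab1* is higher and *Ddit4* lower for PFF at 21% O2 and for 11% O2 in monomer mice, comparisons that share their control mice.

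Lists other than autophagy also moved between these groups, and their part in the values above was not tested. Counts here and in the next paragraph are by the adjusted p alone. Of all genes, 3.89% were higher and 3.71% lower with PFF at 21% O2. For 11% O2 in monomer mice 7.01% were higher and 6.21% lower, and for the interaction 1.24% and 1.08%. In PFF mice 0.815% of all genes passed for 11% O2, in either direction. Of 10 heat shock genes, which include *Bag3*, 8 were lower with PFF at 21% O2, 9 lower with 11% O2 in monomer mice, and 4 higher for the interaction. Their summed TPM was 3514 to 5001 in monomer and 3370.1 to 4156 in PFF mice at 21% O2, and 3129 to 3655 in monomer and 3253 to 3667 in PFF mice at 11% O2. Of 8 endothelial markers, all 8 were higher at 11% O2 in monomer mice and 2 in PFF mice, with summed TPM of 211.6 to 287 in monomer and 176 to 315 in PFF mice at 21% O2, and 283 to 519 and 292 to 382 at 11% O2. With PFF at 21% O2, 1 endothelial marker was higher. Of 6 pericyte markers, 5 were higher at 11% O2 in monomer mice and 2 in PFF mice, and 1 was lower for the interaction.

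Of 8 oligodendrocyte markers, 4 were higher at 11% O2 in monomer mice and 2 with PFF at 21% O2, and 2 were lower for the interaction. Their summed TPM was 8576 to 11873 in monomer and 8603 to 11447 in PFF mice at 21% O2, and 9006 to 13761 in monomer and 9124 to 11668 in PFF mice at 11% O2. No marker of neurons, astrocytes, microglia or choroid plexus passed in any comparison, and no marker of any list was at 0 in every mouse of a group. In these bulk samples fewer cells of a type and less RNA per cell cannot be told apart.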

How the data were processed

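The authors filtered out ribosomal DNA reads, aligned the others with STAR 2.7.5a to mm10, removed duplicates with Picard and counted reads per gene of GENCODE vM24 with featureCounts 2.0.1, with no strand option and primary alignments of multi-mapping reads. They deposited whole-number counts and TPM for 48 mice, left out 6 after principal components analysis, and deposited counts corrected with ComBat-seq, and TPM from these, for 42 mice. ComBat-seq was given injection and O2, so correction depends on the groups. Here the corrected counts were fitted with edgeR 4.0.16 in R 4.3.3 (TMM, filterByExpr, 4 groups in 1 fit, no batch term). SE is the log2 fold change over the square root of F. Replicates were separate mice. Alternatives were DESeq2 1.42.0, limma 3.58.1 on log2(TPM + 1) or log2(TPM + 0.1), other filters and normalization, batch terms and single batches. Positions are from GENCODE vM21 on GRCm38. Full values are given for 12 genes: the 5 with an adjusted p under 0.05, then the next smallest p; other pathway genes were named when called, and any further ones after their values were seen. The genes and lists were chosen with earlier results of these data known. The functions of the main fit were tested on simulated data.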

Additional observations from a re-analysis of the deposited data

Results flagged for a closer look

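*Atg3* and *Map1lc3a* differed between O2 levels in their response to PFF, with interactions of 0.33 and 0.28 on the log2 scale (edgeR adjusted p = 0.00628 and 0.0295). *Sesn3* and *Prkab1* did so among the other pathway genes, at 0.24 and -0.50.

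In the groups of 9 and 10 mice at 11% O2, a mouse far from the others was found for 10 of 80 gene and group pairs, where chance gives about 4. The replicate 3 mouse with monomer was highest for 5 genes: *Pik3r4* at 21.9 TPM, *Ambra1* at 60.7 TPM, *Wipi2* at 59.2 TPM, *Sqstm1* at 638 TPM and *Wdfy3* at 77.3 TPM, where the next mice stood at 17.7, 51.8, 50.0, 532 and 63.2 TPM. The replicate 1 mouse with monomer was highest for *Atg4b* at 43.5 TPM and lowest for *Rab7* at 481 TPM. Among PFF mice, replicate 1 was lowest for *Pik3c3* at 37.8 TPM, replicate 4 highest for *Atg2b* at 24.4 TPM and replicate 12 lowest for *Atg10* at 24.4 TPM.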

How the results depend on the processing

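The number of the 40 genes called was within 1.5 times the reported one in 68 of 73 alternatives. Outside the interaction the reported number was 0, so any alternative calling 0 counts as the same. The share therefore says little about the 2 calls for the interaction. With the adjusted p alone the number was 1 for PFF at 21% O2 and 3 for 11% O2 in monomer mice. For the interaction it was 1 with batch as a covariate in 42 and in 48 mice, and 0 in batch 1 alone. With the replicate number as a block it stayed at 2 for the interaction and 0 elsewhere. The paper states that mice were matched before random assignment to groups, but the labels do not name the matched mice. Mice of the same replicate number can fall in different batches. Their 54 pairs had a median correlation of 0.0033, against -0.014 for 605 other pairs. The numbers thus gave no sign of the matching, which the main fit leaves out. Of the 6 values past the adjusted p, none changed sign. The *Atg3* interaction lost its call in 1 of 12 alternatives (range 0.30 to 0.34) and that of *Map1lc3a* in 3 of 12 (0.24 to 0.38). *Atg4a* lost it in 3 of 14 (0.18 to 0.30), and for 11% O2 in monomer mice *Atg3* lost it in 3 of 13 (-0.19 to -0.11), *Atg12* in 3 of 13 (-0.20 to -0.15) and *Rb1cc1* in 5 of 13 (-0.23 to -0.13). In the fit of the 2 groups alone these 3 were not past it (edgeR adjusted p = 0.0513, 0.0714 and 0.0666). Depth limits the rarer genes, such as *Atg4a* at 28 to 256 counts per mouse.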
